A study of Mus musculus with 8 samples.

Results

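The 10 genes described here are *Lin28a*, *Lin28b*, *Dis3l2*, *Igf2bp1*, *Igf2bp2*, *Igf2bp3*, *Hmga2*, *Mycn*, *Myc*, and *Alk*. They were chosen by symbol as genes of the LIN28 and let-7 pathway, fetal RNA-binding and chromatin genes, and neuroblastoma oncogenes. All 10 were found in both deposited expression tables, among 14188 genes in either table and 12727 in both. The tables come from RNA-seq of mouse sympathetic ganglia at embryonic day (E) 11.5 and E14.5, 2 mutants of the LIM homeodomain factor *Isl1* being compared with their own controls. At E11.5, Isl1-KO embryos (labelled Isl1-/-) were *Wnt1-Cre;Isl1* f/f conditional knockouts, here CKO, and controls were *Wnt1-Cre;Isl1* +/+. Embryos of both E11.5 groups carried a *Rosa26-tdTomato* reporter, by which tissue without fluorescence was trimmed away. Wnt1-Cre acts in neural crest lineages, which form sensory neurons and glia as well as sympathetic neurons, so *Isl1* was deleted in all of these. At E14.5, Isl1-MUT embryos (labelled as an *Isl1* mutation) were hypomorphs, *Isl1* f-neo/f-neo, with reduced *Isl1* in every tissue that uses it, and wildtype embryos were *Isl1* +/+. Each group had 2 libraries of ganglia pooled from several embryos, 8 libraries in all.

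LIN28A and LIN28B bind the precursors of let-7 microRNAs and so hold back mature let-7. LIN28A has them tagged with uridine, and the tagged precursors are degraded by the exonuclease DIS3L2. Mature let-7 in turn represses a group of fetal transcripts that includes those of *Lin28a*, *Lin28b*, *Hmga2*, and the 3 *Igf2bp* genes, so the loop acts as a timer of development. *Mycn* and *Alk*, a transcription factor and a receptor tyrosine kinase, are amplified or mutated in neuroblastoma, a childhood tumour of the sympathetic lineage, and *LIN28B* is also linked to it.

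FPKM, the number of sequenced fragments scaled to transcript length and to all mapped fragments, is the level given here. The authors' tables hold 1 FPKM per gene and group, in which the 2 libraries were combined. No spread between libraries and no read number can therefore be given, no test was run, and no difference below has a replicate check in these values. Changes are log2 ratios of FPKM + 0.1, and a difference of at least 1.5-fold was counted as lower or higher. In bulk tissue, fewer cells of a type and less RNA per cell cannot be told apart. The 2 stages were normalized in separate tables, so stage cannot be told apart from table.

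*Isl1* itself was at 133 FPKM in E11.5 control, 40.01 in CKO, 162 in E14.5 wildtype, and 83.1 in hypomorph ganglia, that is lower in each mutant than in its control (log2 ratio −1.73 and −0.96). The tissue carried its defining markers, since the 18 sympathetic neuron markers summed to 3669, 3031, 6087, and 5167 FPKM in the same order. In CKO ganglia 8 of the 18 were lower and 0 higher (median −0.44), and in the hypomorph 2 were lower and 1 higher (−0.11). The CKO value also stood apart for genes of other tissues. Of 16 erythroid genes measured, 15 were higher. The exception was the embryonic globin *Hbb-y*, listed at 0 against 7552. All 16 together took 11.2% of all FPKM against 2.29% in control, and *Hbb-y* alone made up most of that control share. Of 21 trophoblast and yolk sac genes listed, only 11 had a row, and all 11 were higher (sum 675 against 205). The largest values in that sum were *Sparc* (369 against 129) and *Lamb1* (119 against 37.7), which were at 251 and 60.8 in E14.5 wildtype. The placental hormone *Prl8a2* was at 48.4 against 0.241, whereas the trophoblast genes *Tpbpa* and *Prl3d1* had no row. For mesenchyme, 10 of 14 genes were higher (1349 against 791). Neural crest and glial genes were higher for 13 of 15 (884 against 455), while all 30 S and G2/M phase genes had negative ratios (1448 against 2475, 19 past 1.5-fold). In the hypomorph the 30 S and G2/M phase genes all had positive ratios (1312 against 912), 4 of them past 1.5-fold. Endothelial genes summed to 106 in CKO against 81.1 (2 of 10 higher), and sensory neuron genes to 39.1 against 37.3 (4 of 7 higher). In the hypomorph, neural crest and glial genes summed to 795 against 785, erythroid genes to 6863 against 5645, mesenchyme genes to 1807 against 1625, trophoblast and yolk sac genes to 418 against 358, endothelial genes to 151 against 109, and sensory neuron genes to 36.1 against 29.97. The part of these differences in the values below was not tested.

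**Figure D1:**
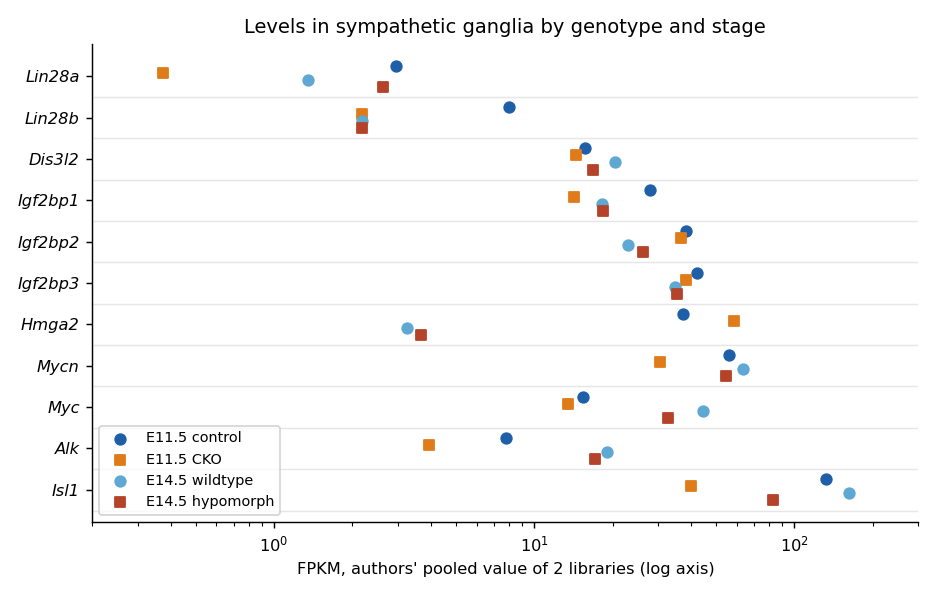
FPKM on a log axis (horizontal) of the 10 genes and *Isl1* (rows) in the 4 groups, each point being the authors' pooled value of 2 libraries, with circles for control or wildtype and squares for mutant ganglia. *Lin28a* in CKO ganglia is the lowest point, at 0.374, and *Hmga2* forms a pair at 37.3 and 58.5 at E11.5 and a pair at 3.23 and 3.66 at E14.5.

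At E11.5, 5 of the 10 genes were at least 1.5-fold lower in CKO ganglia, *Lin28a*, *Lin28b*, *Alk*, *Igf2bp1*, and *Mycn*, against 12.9% of all 13504 genes. *Hmga2* was the 1 gene higher, against 18.9% of all genes, and either way 6 of 10 stand against 31.8%. The other 4, *Dis3l2*, *Igf2bp2*, *Igf2bp3*, and *Myc*, differed by less, although 9 of the 10 ratios were negative, and the median of the 10 was −0.54 against 0.05 for all genes. *Lin28a*, *Lin28b*, and *Alk* were named by the study from these same libraries, so their direction is not independent evidence.

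At E14.5 the same genes lay close to wildtype in the hypomorph. None was 1.5-fold lower, against 2.12% of all 13411 genes, and *Lin28a* was the 1 gene higher, against 2.89%, or 5.0% of all genes either way. The median of the 10 ratios was 0.01, and those of the other 9 genes ran from −0.44 for *Myc* to 0.18 for *Igf2bp2*. Since both background shares were small, a count of 0 or 1 among 10 genes is near what all genes showed. The difference between the 2 mutants was not tested.

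From E11.5 control to E14.5 wildtype ganglia, 5 of the 10 were lower, *Hmga2*, *Lin28b*, *Lin28a*, *Igf2bp2*, and *Igf2bp1*, against 12.7% of all 12727 genes. *Myc* and *Alk* were higher, against 29.7% of all genes, and either way 7 of 10 stand against 42.5%. *Dis3l2*, *Igf2bp3*, and *Mycn* were within 1.5-fold. Over the same interval 29 of 30 S and G2/M phase genes were lower and 11 of 18 sympathetic neuron genes higher, and their part was not tested. The control values of both mutant comparisons also make this comparison, so the 3 are not independent of each other. The median of all genes lay 0.24 above 0 here, and with the ratios centred on it 49.7% in place of 70.0% of the genes past 1.5-fold were higher. At E11.5 the share was 59.4%. It was 35.2% with the columns rescaled without erythroid genes, which moved the median of all genes from 0.05 to −0.18. Here and below, that rescaling multiplied CKO values so that the non-erythroid genes had equal FPKM sums in both columns. All genes, erythroid ones included, summed to 617124 FPKM in CKO and 476258 in control, and the rescaling lowered the CKO values. It equalised column sums and did not take erythroid fragments out of the FPKM scale.

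**Figure D2:**
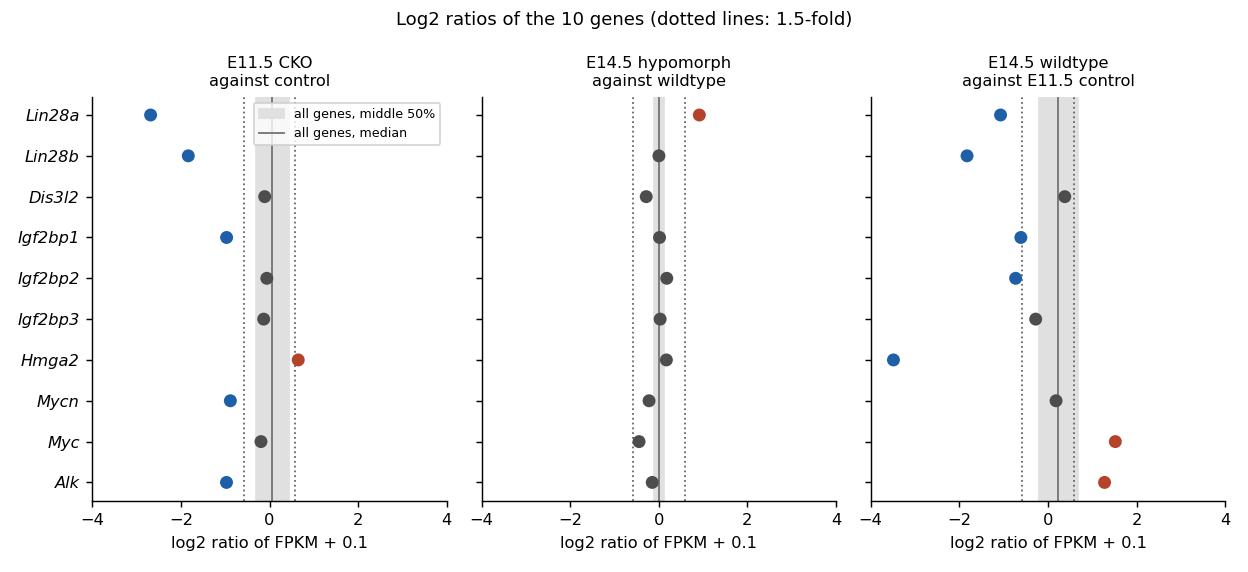
Log2 ratios (horizontal axis) of the 10 genes (rows) in the 3 comparisons, with the middle 50% of all genes shaded, their median as a line, and 1.5-fold as dotted lines. Blue points are lower and red points higher by at least 1.5-fold, which holds for 6 genes in CKO ganglia, for 1 in hypomorph ganglia, and for 7 between the stages.

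*Lin28a* (chr4:133559245-133574756, minus strand, on mm9), the paralogue best known from pluripotent cells, was at 2.94 FPKM in E11.5 control and 0.374 in CKO ganglia, and at 1.35 in E14.5 wildtype and 2.63 in hypomorph ganglia. It was 6.42-fold lower in CKO (log2 ratio −2.68), a lower ratio than that of all but 0.9% of genes. In the hypomorph it was 1.89-fold higher (0.92), above 98.9% of genes. Between the stages it was 2.10-fold lower (−1.07). All of these levels are low, since even the control value was above only 19.2% of genes. With a pseudocount of 1 the E11.5 ratio was −1.52 and the E14.5 ratio 0.63.

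*Lin28b* (chr10:45096426-45206201, minus strand), which acts on the same precursors, was the more abundant paralogue in 3 of the 4 groups. Its level was 7.98 FPKM in control but 2.17 in CKO ganglia, whereas wildtype and hypomorph ganglia both stood at 2.18. It was 3.56-fold lower in CKO (−1.83), equal in the hypomorph (0.00), and 3.55-fold lower in E14.5 wildtype than in E11.5 control (−1.83). CKO ganglia at E11.5 and both groups at E14.5 thus stood at nearly the same level. *Lin28b* exceeded *Lin28a* 2.71 times in control, 5.81 times in CKO, and 1.61 times in wildtype ganglia, but was at 0.829 of *Lin28a* in the hypomorph.

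Sequences of the let-7 loop are given because they tie 6 of the 10 genes to each other. In RefSeq (GRCm38.p6), 9 mature mouse microRNAs of the family share the seed GAGGUAG, bases 2 to 8, in capitals for 3 of them:
let-7a-5p: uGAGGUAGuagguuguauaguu
let-7i-5p: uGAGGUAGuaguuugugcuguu
miR-98-5p: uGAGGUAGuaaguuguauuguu
The longest annotated 3′ UTR of each gene (GENCODE M1 on NCBIM37, that is mm9) was searched on the transcript strand for CTACCTCA, the seed match followed by A. That 8-base site was found in 3.71% of the 11401 genes with a 3′ UTR in both tables. It was found in *Lin28a*, *Lin28b*, *Igf2bp1*, *Igf2bp2*, *Igf2bp3*, and *Hmga2*, and not in *Dis3l2*, *Mycn*, or *Myc*, and *Alk* had no annotated 3′ UTR. All sites shown lie on the minus strand of the genome in exonic 3′ UTR sequence, written 5′ to 3′ along the transcript with the site in capitals:
Lin28a, chr4:133561093-133561122: agcctgttgaaCTACCTCAtttttgccgat
Lin28a, chr4:133560455-133560484: tcgccacaaacCTACCTCActgtgttgaaa
Lin28b, chr10:45100817-45100846: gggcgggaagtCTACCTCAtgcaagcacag
Igf2bp1, chr11:95823081-95823110: tgcgaagtaaaCTACCTCAaggtgtgaagt
Igf2bp1, chr11:95820660-95820689: agtgctattaaCTACCTCAgccccagaggg
Igf2bp1, chr11:95820066-95820095: aaatggatgaaCTACCTCAgtcctcacagt
Igf2bp2, chr16:22059535-22059564: acaaataaaagCTACCTCAggtgtttttta
Igf2bp3, chr6:49036775-49036804: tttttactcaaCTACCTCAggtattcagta
Hmga2, chr10:119801269-119801298: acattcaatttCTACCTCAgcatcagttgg

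The 8-base site is commoner in longer UTRs, so each gene was set beside genes whose UTR was within 20% of its length. *Lin28a* (UTR of 2775 bases) held 2 sites, where 5.20% of 1614 such genes had any, and *Lin28b* (4445 bases) held 1, where 9.35% of 845 did. *Igf2bp1* (6337 bases) held 3, where 13.8% of 311 did. *Igf2bp2* and *Igf2bp3* held 1 each, where 4.28% and 4.53% of like genes did, and *Hmga2* (3014 bases) held 1, where 6.20% of 1484 did. Counting also the 7-base forms CTACCTC and TACCTCA, which overlap the 8-base site and were found in 17.1% of genes in any form, *Hmga2* held 7 sites, *Lin28b* and *Igf2bp1* 5 each, and *Mycn* 2. Among genes of like UTR length, 29.4%, 41.7%, 49.5%, and 11% respectively had at least 1 such site. A match of letters is a description and not a sign of binding.

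Mature let-7 was not measured in these polyA libraries. Of its genes, the precursor row *Mirlet7i* was at 62.0 FPKM in wildtype and 50.6 in hypomorph ganglia. At E11.5, *Mirlet7c-1* was listed at 0 in control and 5.95 in CKO, and *Mirlet7d* at 3.01 and 0. No fold was computed against a value of 0.

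Genes with at least 1 8-base site had medians close to those of genes without it. In CKO ganglia the median log2 ratio of 370 genes with a site and a UTR of at least 1000 bases was −0.08, against −0.03 for 6364 genes without. Between the stages the medians were 0.14 for 360 genes and 0.22 for 6164, and in the hypomorph 0.01 and 0.01. In CKO ganglia 16.5% of the 370 and 14.2% of the 6364 were at least 1.5-fold lower. The few genes with 2 or more sites, *Lin28a* and *Igf2bp1* among them, had medians of −0.15 in CKO (18 genes, 22.2% lower) and −0.12 between the stages (17 genes, 23.5% lower). *Lin28a* and *Igf2bp1* were themselves past 1.5-fold lower in both comparisons, so these shares partly repeat the values of the members. No share without them was computed.

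The enzyme at the end of the LIN28 pathway, *Dis3l2* (chr1:88600379-88946672, plus strand), was nearly level, at 15.7 FPKM in control, 14.5 in CKO, 20.4 in wildtype, and 16.8 in hypomorph ganglia (log2 ratios −0.11, −0.28 in the hypomorph, and 0.38 between the stages). The other exosome subunits and exonucleases lay within 1.5-fold in both mutants, with 0 of 18 lower or higher. With the columns rescaled without erythroid genes, 5 of the 18 were lower in CKO, against 22.5% of all genes. At 5 FPKM or more their steepest ratios were −0.58 for *Exosc2* in CKO (34.5 to 23.1 FPKM) and 0.29 for *Exosc8* in the hypomorph (23.4 to 28.6), both subunits of the exosome core. Between the stages *Exosc9*, a further core subunit, was lower (33.6 to 19.2) and *Skiv2l*, the helicase of the cytoplasmic exosome, was higher (14.2 to 26.03).

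The rest of the let-7 biogenesis and decay list held 22 genes at E11.5. In CKO ganglia 6 were lower and 0 higher, against 12.9% and 18.9% of all genes, with a median of −0.35. The steepest at 5 FPKM or more was *Msi1*, which encodes the Musashi RNA-binding protein that can bring LIN28 to let-7 precursors, at 33.2 FPKM in control and 10.3 in CKO (−1.67). The most abundant, the Drosha cofactor *Ddx5* (522 and 428) and the splicing factor *Hnrnpa1* (380 and 294), were within 1.5-fold. In the hypomorph 0 of 21 differed, and *Ddx17*, the paralogue of *Ddx5*, was at 308 in wildtype and 263 in mutant ganglia. Between the stages 4 of 21 were lower and 3 higher, against 12.7% and 29.7% of all genes.

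The 3 *Igf2bp* genes encode RNA-binding proteins that stabilise fetal growth transcripts, and they parted from each other in CKO ganglia. *Igf2bp1* (chr11:95818477-95867254, minus strand) was at 27.8 FPKM in control, 14.2 in CKO, 18.2 in wildtype, and 18.4 in hypomorph ganglia. It was 1.96-fold lower in CKO (−0.97), equal in the hypomorph (0.02), and 1.53-fold lower at E14.5 (−0.61), the last being within 1.5-fold with a pseudocount of 1 (−0.57). *Igf2bp2* (chr16:22059082-22163372, minus strand) was at 38.3, 36.7, 23.0, and 26.1 in the same order. Its ratios in the mutants were −0.06 and 0.18, and it was 1.66-fold lower at E14.5 (−0.73). *Igf2bp3* (chr6:49035220-49164953, minus strand) was at 42.1, 38.4, 34.7, and 35.5, within 1.5-fold in all 3 comparisons (−0.13, 0.03, and −0.28). *Igf2bp3* was the highest of the 3 in every group, and exceeded *Igf2bp1* 1.51 times in control and 2.71 times in CKO ganglia.

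Of 17 transcripts known as IGF2BP-bound or as fetal growth RNAs, 2 were lower and 2 higher in CKO ganglia, with a median of −0.11. That is 11.8% each, against 12.9% and 18.9% of all genes. With the columns rescaled without erythroid genes 4 were lower (23.5%) and 0 higher, against 22.5% and 12.2% of all genes. At 5 FPKM or more 1 of 13 was lower and 0 were higher, against 1325 and 1554 of 10272 genes. The lower counts were thus near or under the shares of all genes. *Igf2*, the growth factor that names the family, was at 374 FPKM in control and 519 in CKO (0.47), and *Actb*, the actin transcript bound by IGF2BP1, at 1919 and 1750 (−0.13). The imprinted gene *Peg10* was lower (40.8 and 23.7, −0.78). In the hypomorph 0 of 17 differed, with the steepest ratio at 5 FPKM or more, 0.45, in the Wnt pathway factor *Tcf7l2* (8.19 and 11.2). At E14.5, *H19*, the imprinted RNA beside *Igf2*, was higher (360 to 657 FPKM, 0.87) and *Actb* lower (1919 to 1120, −0.78). In all, 6 were higher and 2 lower, against 29.7% and 12.7% of all genes. Of the *Actb* transcript 41.1% occurs elsewhere in the genome, a property described with *Hmga2*.

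*Hmga2* (chr10:119798331-119913525, minus strand), an architectural chromatin protein of embryonic and tumour cells, went against the other members at E11.5. It was at 37.3 FPKM in control and 58.5 in CKO ganglia, 1.57-fold higher (0.65), but within 1.5-fold when the columns were rescaled without erythroid genes (0.41). Embryonic mesenchyme is known to express *Hmga2*, 10 of 14 mesenchyme genes were also higher in CKO, and their part in this value was not tested. At E14.5 it was at 3.23 in wildtype and 3.66 in hypomorph ganglia (0.17). From E11.5 control to E14.5 wildtype it was therefore 11.2-fold lower (−3.49), among the lowest 1.1% of genes.

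Beside this value stands a difference between the tables. For each gene, every 20th stretch of 31 bases of its longest coding transcript was looked up in the NCBIM37 genome outside the gene. The 277 genes in which 40% to 60% of these stretches also occur elsewhere had a median of −0.99 between the stages, and 68.6% were lower. For the 290 genes at 60% or more the median was −2.33 and 90% were lower, against 0.36 and 6.66% for the 7435 genes under 1%. Within a table the classes differed far less, the medians of the 40% to 60% class being 0.11 in CKO and 0.04 in hypomorph ganglia. Genes with a pseudogene of the same symbol, *Hmga2* among them, had a median of 0.35 in CKO ganglia, with 41 of 136 higher and 9 lower. *Hmga2* was at 40.7%, and a pseudogene, *Hmga2-ps1*, had its own row at 0.797, 1.77, 3.86, and 3.01 FPKM in the order control, CKO, wildtype, and hypomorph. Its ratio lay below the 10th percentile of its class (−2.75). *Lin28a* was at 13.8%, in a class with a median of −0.02, and the other 8 members were at 3.01% or less.

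**Figure D3:**
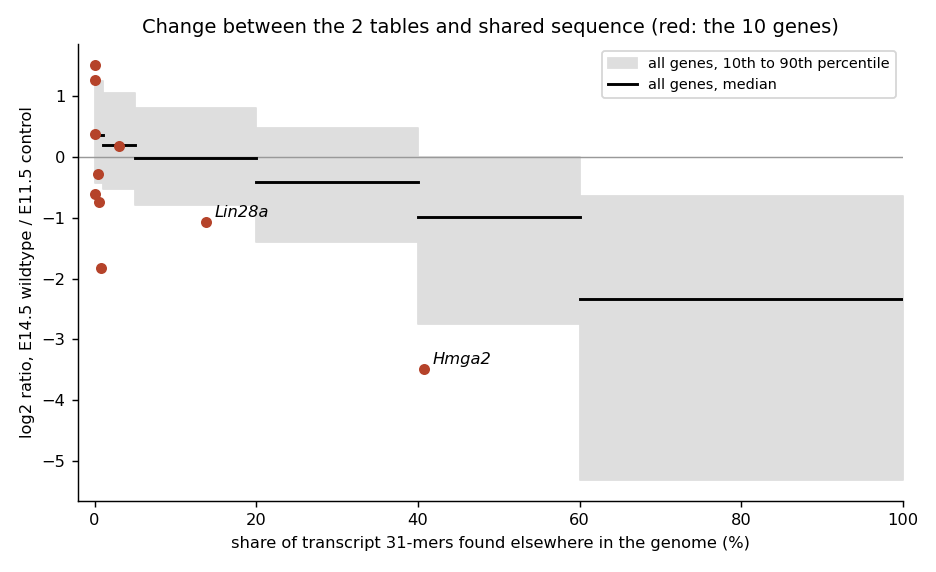
Log2 ratio of E14.5 wildtype to E11.5 control (vertical) against the share of a gene's transcript found elsewhere in the genome (horizontal, percent), with the median (line) and the 10th to 90th percentile (shading) of all genes in 6 classes and the 10 genes as red points. The classes step down from 0.36 to −2.33, and *Hmga2*, at 40.7%, lies below the shading of its class.

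Relatives of *Hmga2* behaved likewise. Of the 8 other high mobility group genes measured, 7 were lower at E14.5, against 12.7% of all genes. *Hmgb1* went from 596 to 3.97 FPKM (−7.19) and *Hmgn2* from 739 to 7.07 (−6.69), and 76.6% and 93.5% of their transcripts occur elsewhere. The 1 not lower, *Hmgn3* (27.5 and 27.1), was at 1.45%. Within the tables, *Hmgb2*, a chromatin protein of dividing cells, was lower in CKO (219 to 83.8, −1.38) and higher in hypomorph ganglia (7.26 to 11.1, 0.60), as the S and G2/M phase genes were.

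*Mycn* (chr12:12942902-12948720, minus strand), the MYC paralogue of neural progenitors, was at 56.0 FPKM in control, 30.3 in CKO, 63.6 in wildtype, and 54.6 in hypomorph ganglia. Per length it was the highest of the 10 in control, wildtype, and hypomorph ganglia, and stood below *Hmga2*, *Igf2bp3*, and *Igf2bp2* in CKO ganglia. It was 1.85-fold lower in CKO (−0.88) and within 1.5-fold in the hypomorph (−0.22). Between the stages its ratio was 0.18, or −0.05 with the ratios centred on the median of all genes.

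*Myc* (chr15:61816946-61821929, plus strand) was at 15.4 and 13.5 FPKM at E11.5 and at 44.4 and 32.6 at E14.5, control before mutant. It was within 1.5-fold in CKO (−0.19) and in the hypomorph (−0.44), although the latter ratio was lower than that of all but 3.5% of genes. It was 2.87-fold higher in E14.5 wildtype than in E11.5 control ganglia (1.52). *Mycn* exceeded *Myc* 3.64 times in control, 2.25 times in CKO, 1.43 times in wildtype, and 1.68 times in hypomorph ganglia. *Mycn* was the higher paralogue in every group, and the paralogues lay closer at E14.5.

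Partners and regulators of MYC proteins were lower for 5 and higher for 1 of 22 in CKO ganglia, with a median of −0.25. The shares of all genes were 12.9% and 18.9%. *C330027C09Rik*, also named *Cip2a*, which protects MYC protein from dephosphorylation, went from 35.5 to 15.1 FPKM (−1.23), and *Mxd4*, a MAX-binding repressor that opposes MYC, from 34.7 to 57.8 (0.74). In the hypomorph 0 of 22 differed. *C330027C09Rik* was at 14.8 and 21.1 there (0.51), and *Plk1*, a mitotic kinase that stabilises MYCN, at 21.9 and 29.9 (0.45). The helicase *Ruvbl2*, a MYC cofactor, was within 1.5-fold in all comparisons (60.5, 55.4, 60.3, and 62.6 in the order above). The ubiquitin ligase *Huwe1* was at 65.1 and 62.5 at E14.5, but at 51.8 in control and 32.0 in CKO ganglia (−0.69).

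Between the stages 4 of the 22 partners were lower and 2 higher, against 12.7% and 29.7% of all genes. *Plk1* went from 55.8 to 21.9 FPKM (−1.35), and *Ruvbl1*, the paralogue of *Ruvbl2*, from 43.9 to 7.83 (−2.47). Of their transcripts, 22.9% and 74.7% occur elsewhere in the genome.

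MYC target genes were lower for 3 and higher for 1 of 40 in CKO ganglia, against 12.9% and 18.9% of all genes, with a median of −0.17. The count depended on the scaling. With the columns rescaled without erythroid genes 12 were lower and 0 higher, against 22.5% and 12.2% of all genes, and with the ratios centred 6 were lower, against 14.7%. *Nolc1*, a nucleolar ribosome assembly factor, was lower (44.5 to 20.8 FPKM, −1.09) and *Ccnd2*, a G1 cyclin, higher (50.1 to 86.4, 0.79). The abundant nucleolar gene *Npm1* (778 and 856) was within 1.5-fold. In the hypomorph 0 of 40 differed. Between the stages 22 of 40 were lower, against 12.7% of all genes, with a median of −0.69. Among them were *Impdh2* of guanine nucleotide synthesis (174 to 5.10, −5.07), the nucleolar methyltransferase *Fbl* (114 to 8.34), and the translation initiation helicase *Eif4a1* (530 to 42.1). Of their transcripts, 91.6%, 91.2%, and 87.1% occur elsewhere. Of the 13 target genes with under 5% elsewhere, 2 were lower and 0 higher, with a median of −0.11. Among all 9373 genes with under 5% elsewhere, 662 were lower and 3133 higher, with a median of 0.32.

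*Alk* (chr17:72218782-72953049, minus strand) was at 7.80 FPKM in control, 3.93 in CKO, 19.02 in wildtype, and 17.2 in hypomorph ganglia. It was 1.96-fold lower in CKO (−0.97), within 1.5-fold in the hypomorph (−0.15), and 2.42-fold higher in E14.5 wildtype than in E11.5 control ganglia (1.28). Like *Lin28b*, it had its lowest level in CKO, but unlike *Lin28b* it had its higher levels at the later stage. None of its transcript occurs elsewhere in the genome.

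The genes around ALK were mostly within 1.5-fold in both mutants. Of 13 measured, 0 were lower and 1 was higher in CKO, against 12.9% and 18.9% of all genes. The counts were also 0 and 1 in the hypomorph, against 2.12% and 2.89%. The higher gene in both was *Ltk*, the related receptor, named here after its values were seen, at low levels of 0.802, 2.09, 1.19, and 1.86 FPKM. Midkine, *Mdk*, a heparin-binding growth factor proposed as an ALK ligand, was abundant at 278 in control, 342 in CKO, 186 in wildtype, and 205 in hypomorph ganglia, and *Sdc3*, the syndecan that binds it, went from 50.1 in E11.5 control to 110 in E14.5 wildtype (1.14). *Ptprz1*, a phosphatase receptor for midkine and pleiotrophin, was at 6.43 and 9.61 at E11.5 (0.57), and the adaptor *Shc1* at 43.2 and 36.1 at E14.5 (−0.26). The ligand genes *Alkal1* and *Alkal2* were not analysed here.

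Genes linked to neuroblastoma, 38 in the list with *Mycn*, *Alk*, and *Lin28b* among them, were mostly lower in CKO. The list holds several genes that the study picked out of these libraries, so its direction is not independent evidence. Without the 3 members, 17 of 35 were lower and 1 higher, against 12.9% and 18.9% of all genes, with a median of −0.57. The 17 include *Isl1*, the mutated gene, which is lower by design. *Lmo1*, a transcriptional cofactor and neuroblastoma risk gene, went from 43.2 to 4.23 FPKM (−3.32), *Ccnd1*, the G1 cyclin, from 831 to 123 (−2.75), and *Prox1*, a homeobox factor, from 32.6 to 6.60 (−2.29). *Hand2*, a core factor of noradrenergic identity, went from 298 to 193 (−0.62). *Tbx2* (60.5 to 26.2), a T-box factor, and the mitotic regulator *Foxm1* (29.5 to 12.6) were also lower. *Twist1*, a mesenchymal factor, was the 1 gene higher (12.4 to 22.8, 0.88).

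In the hypomorph 5 of those 35 were lower and 2 higher, against 2.12% and 2.89% of all genes, with a median of 0.05. *Casz1*, a zinc finger tumour suppressor, went from 23.8 in wildtype to 10.8 (−1.13), *Lmo1* from 65.6 to 30.9 (−1.08), and *Phox2a* from 553 to 360 (−0.62). *Isl1*, the mutated gene, was also among the 5 and is lower by design, so it is not a result about the list. *Ret*, a receptor of GDNF family ligands, was higher (68.8 to 130, 0.91), as was *Prox1* (24.8 to 37.7, 0.60). Apart from the mutated gene *Isl1*, *Lmo1* was thus lower in both mutants, and *Prox1* was lower in one and higher in the other. Of the 3 members in the list, none was past 1.5-fold in the hypomorph.

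Between the stages 7 of the 35 were lower and 11 higher, against 12.7% and 29.7% of all genes. The higher genes included *Casz1* (4.10 to 23.8), *Phox2a* (223 to 553), *Hand2* (298 to 474), *Tbx2* (60.5 to 119), and *Lmo1* (43.2 to 65.6). *Odc1*, the polyamine synthesis gene and MYCN target, was lower (128 to 14.98, −3.09), and 69.8% of its transcript occurs elsewhere. *Foxm1*, *Ret*, and *Twist1* were lower too (−0.68, −0.62, and −1.04). *Ccnd1* (831 and 782) was level.

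**Figure D4:**
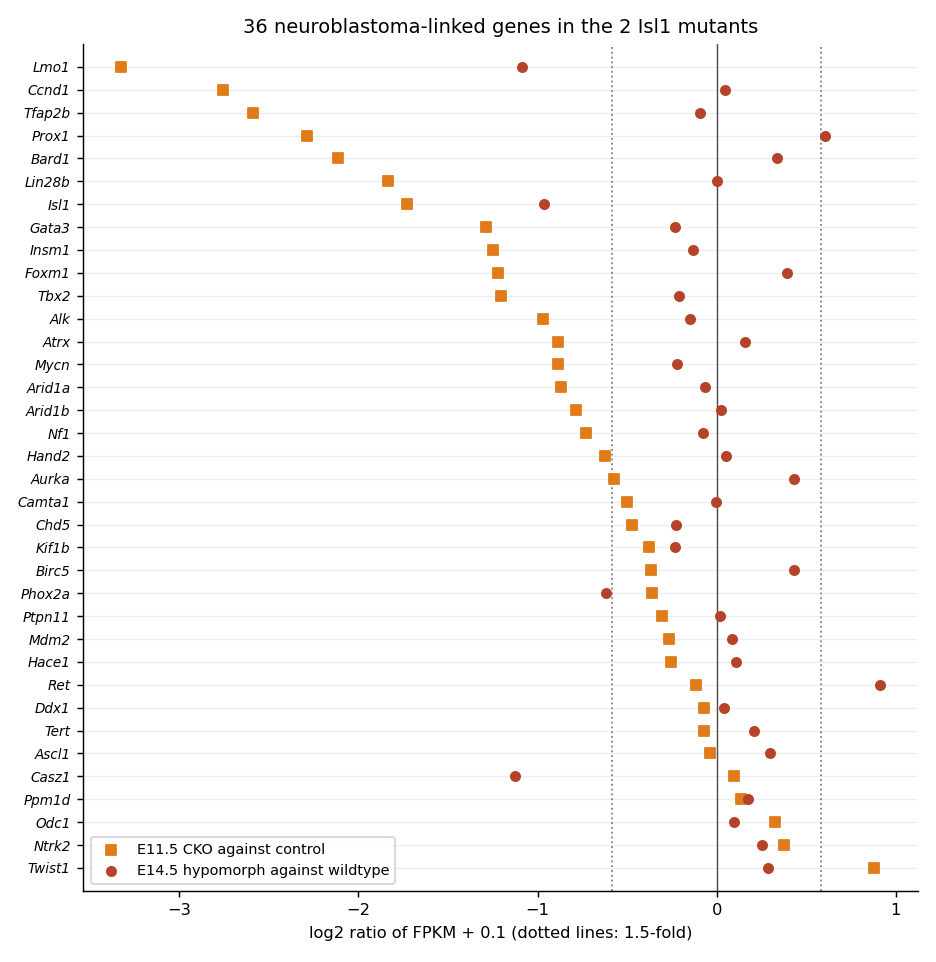
Log2 ratios (horizontal) of 36 neuroblastoma-linked genes (rows, ordered by the CKO ratio) in CKO ganglia at E11.5 (squares) and in hypomorph ganglia at E14.5 (circles), with 1.5-fold as dotted lines. At E11.5, 18 squares lie left of −0.58, whereas *Casz1*, *Lmo1*, *Isl1*, and *Phox2a* are the 4 circles that do. *Isl1*, the mutated gene, is among both.

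Known let-7 target genes other than the members were lower for 6 and higher for 3 of 29 in CKO ganglia. The shares of all genes were 12.9% and 18.9%, and the median of the 29 was −0.31. The most abundant of these targets, *Ccnd1* and the ribonucleotide reductase gene *Rrm2* (192 to 77.0 FPKM, −1.32), were both lower, and both are also genes of the dividing cell. The 3 higher were *Dusp4* (4.37 to 13.9, 1.65), *Thbs1* (5.17 to 15.7, 1.58), and *Ccnd2* (50.1 to 86.4, 0.79). In the hypomorph 0 of 28 were lower and 1, *Rrm2*, was higher (54.4 to 89.3, 0.72), against 2.12% and 2.89% of all genes. Between the stages 7 were lower and 4 higher, against 12.7% and 29.7% of all genes, with a median of −0.24. *Hmga1* went from 63.3 to 11.2 (−2.49), with 73.4% of its transcript found elsewhere.

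**Figure D5:**
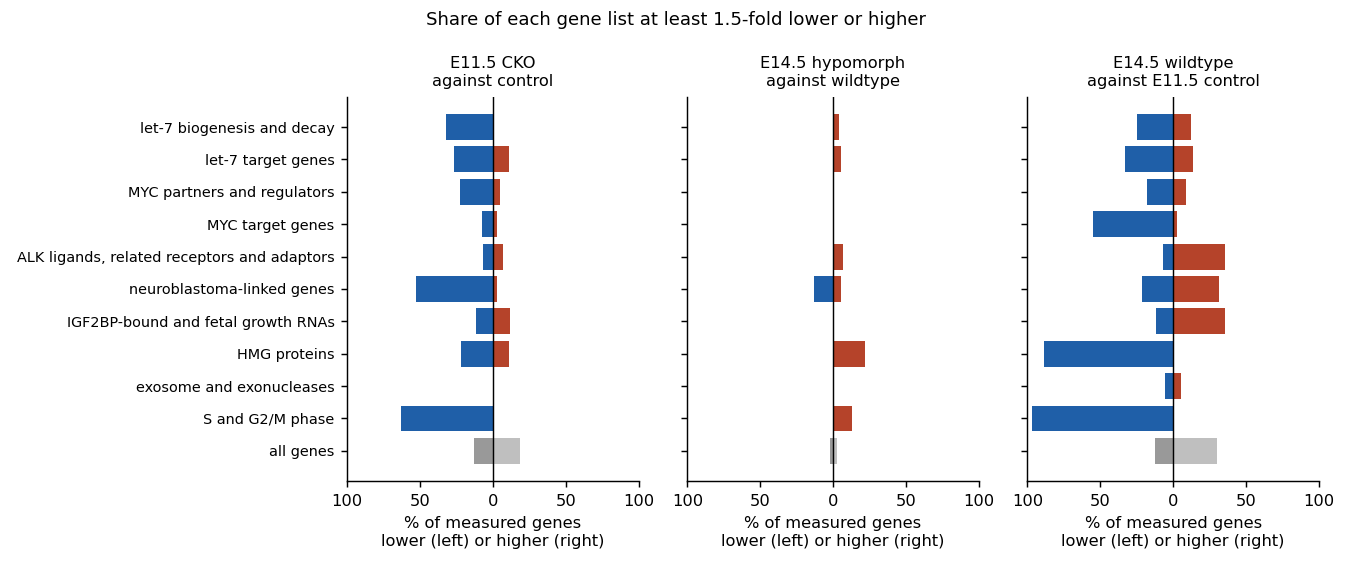
Percent of measured genes (horizontal) at least 1.5-fold lower (left, blue) or higher (right, red) in 10 gene lists, members included, and, in grey, among all genes, for the 3 comparisons. At E11.5 the neuroblastoma-linked (20 of 38) and S and G2/M phase lists (19 of 30) have the longest blue bars, and in the hypomorph the neuroblastoma-linked list has the one blue bar (5 of 38). Both neuroblastoma-linked counts include *Isl1*, the mutated gene.

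Genes whose pattern over the 4 groups was most like each member were found by the distance between mean-centred log2 values, among about 10600 genes, which describes likeness over 4 pooled values alone. For *Lin28a* these were *Prox1* (32.6, 6.60, 24.8, and 37.7 FPKM in the order control, CKO, wildtype, and hypomorph), *Tcf24*, and *Vip* (26.9, 7.18, 18.0, and 45.3), a neuropeptide gene. For *Lin28b* they were *Itga1* (9.56, 3.76, 2.36, and 2.68), *Mettl7a2Higd1c*, and the mitotic kinesin *Kif15* (20.9, 8.74, 7.70, and 10.2). For *Igf2bp1* they were *Usp27x*, *Hnrnph1* (480, 271, 315, and 323), and *Adora2a*. For *Mycn* they were *Bcat1* (20.01, 10.7, 21.4, and 18.8), an amino acid transaminase, *Sbno1*, and *Ccdc137*.

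The nearest genes of *Myc* were *Dpysl3* (234, 208, 714, and 499 FPKM), *Agrn*, and *Plxna3*, and those of *Alk* were *Itfg2*, *Syn3*, and *Plxna4* (42.3, 19.7, 97.6, and 90.4). *Dpysl3*, *Plxna3*, *Plxna4*, and *Syn3* are known from axon guidance and synapses. For *Hmga2* they were the ribosomal protein genes *Rpl41* (2245, 3425, 191, and 211), *Rpl23*, and *Rpl7*. Ribosomal protein genes as a class had a median of 0.65 in CKO ganglia and of −4.13 between the stages, where 63 of 70 were lower. For *Igf2bp2*, *Igf2bp3*, and *Dis3l2* the nearest were *Prkrir*, *Fgfr1op2*, and *Cnbp*, *Fam120aos*, *Kif16b*, and *Denr*, and *Mxra7*, *Eral1*, and *Scarb2*. The member nearest to *Alk* was *Myc*, at a distance of 0.66, and the one nearest to *Lin28b* was *Igf2bp1*, at 0.999.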

How the data were processed

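RNA of sympathetic ganglia was sequenced in 8 libraries, 2 per group, as paired-end polyA RNA-seq. The authors aligned the reads and deposited 1 FPKM value per gene and group for each stage, with the 2 libraries combined by Cuffdiff. The submitters' processing notes name Bowtie, TopHat 1.3.1, and Cuffdiff 1.3.0 and list a fly build, whereas the study's methods give mouse mm9, which was used here for coordinates. In both tables every gene had at least 1 FPKM in at least 1 column. Read depth per library is unknown, and no interval could be given. The tables' own log2 fold changes and p-values, the authors' comparisons, were not used. Groups were taken from the labels.

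Ratios are log2 of FPKM + 0.1 in mutant over control, or E14.5 wildtype over E11.5 control, with 1.5-fold as the limit. The tables were normalized separately. Members and lists were chosen with earlier results of these data known. The text names the members, *Isl1*, per list and comparison the 2 genes of highest FPKM and the 2 of largest ratio at 5 FPKM or more, neuroblastoma-linked genes past 1.5-fold in 2 comparisons (2 of the list's genes are counted but not reported here), and the 3 nearest genes of each member. Marker genes, *Huwe1* at E11.5, *Ltk*, *Hmgn3*, *Dusp4*, *Thbs1*, *Ccnd2* as a let-7 target, the let-7 rows, and *Hmga2-ps1* were named after their values were seen. Alternatives were another pseudocount, centring, and rescaling to equal FPKM sums without erythroid genes. Others were filters on low values and small RNAs, other limits, and genes with little shared sequence. Python 3.11.15, numpy 2.4.6, and pandas 2.3.3 were used, and the steps were tested on simulated data.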

Additional observations from a re-analysis of the deposited data

Results flagged for a closer look

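*Lin28a* was looked at again because it differed from its control in opposite directions in the 2 mutants. Its log2 ratio was −2.68 in CKO ganglia at E11.5 (2.94 FPKM in control and 0.374 in CKO) and 0.92 in hypomorph ganglia at E14.5 (1.35 in wildtype and 2.63 in hypomorph). The difference between the mutants was not tested, since each group has 1 pooled value, and the mutants also differ in allele and stage.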

How the results depend on the processing

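No paired analysis was possible because each group has 1 pooled value per gene, and for the same reason no library could be left out. Of 60 member counts over all settings 10 moved, of 60 counts over all genes 25, and of 1020 list counts 192, of which 57 were at a 1.2-fold and 49 at a 2-fold limit. Of 408 list medians 3 moved and 1 reversed, and of 252 values of single genes 1 moved, *Lin28a* in CKO being −1.52 with a pseudocount of 1. Counts of lower and higher genes are given in that order. In CKO ganglia, rescaling without erythroid genes gave 3033 and 1649 of all genes (22.5% and 12.2%) and 0 members higher. Members included, it gave 17 and 2 of 37 let-7 targets, 13 and 0 of 25 let-7 biogenesis genes, 12 and 0 of 40 MYC targets, 10 and 0 of 22 MYC partners, 5 and 0 of 9 high mobility group genes, 4 and 0 of 17 IGF2BP-bound RNAs, and 2 and 1 of 14 ALK genes. Restriction to 5 FPKM gave 1554 of 10272 genes higher and a sensory neuron median of −0.043, which reversed its sign with 2 genes left. In the hypomorph, a pseudocount of 1 gave 188 and 217 of 13411 genes. There, restriction to 5 FPKM gave 173 and 225 of 10364 with 0 of 7 members higher, and restriction to 1 FPKM in both columns 244 of 13019 higher. Between the stages, centring gave 2476 and 2447 genes, and restriction to 5 FPKM gave medians of −1.45 for erythroid and 1.17 for mesenchyme genes. A 2-fold limit gave 652 and 1135 genes, with 2 members lower and 0 higher, in CKO, 105 and 131, with 0 members higher, in the hypomorph, and 860 and 1737, with 3 members lower, between the stages. A 1.2-fold limit gave 3711 and 4695, 1209 and 1638 with 2 members lower, and 2907 and 6148. Restriction to genes with under 5% of the transcript elsewhere was chosen after seeing the data, and it leaves out *Hmga2* and *Lin28a*. Of the 8 members left, 0 were higher in CKO and in the hypomorph. In the hypomorph 168 and 201 of 9766 genes remained past the limit. Between the stages it gave 3 of 8 members and 662 of 9373 genes lower, and a high mobility group value of −0.018, with 1 gene left. Apart from these constructions the cause was not tested. The unknown depth limits low genes most, *Lin28a* above all.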
